A study of Mus musculus with 20 samples.

Results

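The high mobility group (HMG) genes of the mouse encode small, abundant non-histone proteins of chromatin, and 9 of them are described here in single 8-cell (8C) embryos: Hmgn1, Hmgn2, Hmgn3 and Hmgn5 of the HMGN family, Hmgb1, Hmgb2 and Hmgb3 of the HMGB family, and Hmga1 and Hmga2 of the HMGA family. They were taken by gene symbol from the 34937 Ensembl genes counted in each embryo, and all 9 were found. The list was drawn up around Hmgn1, and its members were chosen by the counts of Hmgn1 in embryos of mothers with and without G9a, known beforehand to be lower in the latter. Their values in the comparison of maternal genotypes are given below as a description. No p-value is given for them there, and where the text says that the fit called a member or not, this restates the choice for Hmgn1 and supports nothing. Tests are given for zygotic genotype, for embryo sex and for genes outside the list.

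RNA was measured in 19 embryos collected at E2.5 from natural matings on a mixed background, each embryo being 1 library. The 9 Ehmt2Cntr embryos had Ehmt2F/+ mothers and the 10 Ehmt2Mat embryos had Ehmt2F/- mothers, where F is a conditional allele of Ehmt2, the gene for the histone methyltransferase G9a. All mothers, those of the controls included, carried Zp3-Cre, a Cre driven by an oocyte promoter, and so lost the F allele in the growing oocyte. Of the controls, 6 were zygotic +/+ and 3 were +/-, and of the Ehmt2Mat embryos, 5 were -/- (Ehmt2M/Z) and 5 were +/- (Ehmt2M/+). Only embryos of normal morphology were used, no label ties embryos to mothers or litters, and maternal genotype and litter cannot be told apart. Counts of control embryo 4 were not analysed here.

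HMGN proteins bind the nucleosome core particle through a conserved, positively charged stretch and compete with linker histone H1 for access to it, which loosens chromatin. HMGB proteins carry HMG boxes that bend DNA in the minor groove and serve nucleosome remodelling, repair and transcription factor binding, and HMGB1 is also a signal when released from cells. HMGA proteins grip AT-rich DNA through short AT-hooks and help to assemble transcription complexes. In early embryos and stem cells these proteins are abundant, and Hmga2, a target of let-7 microRNAs, is largely embryonic.

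The stretches that define the families are shown first, because they are what the members share and because their likeness bears on how reads can be told apart. Each is a piece of the coding sequence of the longest well-supported protein-coding transcript in GENCODE M21 (GRCm38), written 5′ to 3′ on the sense strand. Of the HMGN genes, 60 bases are printed around the nucleosome-binding core, with the 24 bases that encode the core in capitals. Each HMGN stretch is joined across an intron, so its genomic span is longer than the sequence. It lies at chr16:96127183-96127440 for Hmgn1, chr4:133966459-133966965 for Hmgn2, chr9:83112250-83120381 for Hmgn3 and chrX:109010587-109011430 for Hmgn5, all on the minus strand.
Hmgn1: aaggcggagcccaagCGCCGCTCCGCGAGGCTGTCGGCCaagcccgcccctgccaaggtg
Hmgn2: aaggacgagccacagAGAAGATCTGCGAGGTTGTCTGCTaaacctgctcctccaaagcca
Hmgn3: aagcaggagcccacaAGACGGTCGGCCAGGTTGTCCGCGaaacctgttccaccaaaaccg
Hmgn5: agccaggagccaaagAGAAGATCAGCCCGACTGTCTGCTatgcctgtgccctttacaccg

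Over these 60 bases, Hmgn1 was identical to Hmgn2 at 40 (66.7%), to Hmgn3 at 38 (63.3%) and to Hmgn5 at 33 (55.0%). The most alike pair was Hmgn2 and Hmgn3, at 44 of 60 bases (73.3%).

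Of the HMGA genes, 51 bases are printed around an AT-hook, with the bases that encode the hook in capitals. The stretch of Hmga1 lies at chr17:27560946-27560996 on the plus strand and that of Hmga2 at chr10:120473273-120473323 on the minus strand. They were identical at 37 of 51 bases (72.5%).
Hmga1: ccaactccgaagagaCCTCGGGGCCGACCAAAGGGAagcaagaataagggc
Hmga2: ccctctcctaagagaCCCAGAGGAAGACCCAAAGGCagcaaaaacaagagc

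The region upstream of Hmgn1 is shown because Hmgn1 is the member whose groups of embryos stood apart. These 246 bases directly upstream of the gene's start in the Ensembl annotation, at chr16:96127730-96127975 on the minus strand of GRCm38.p6, held 29 CpG dinucleotides and 76.4% G or C. Capitals mark CCAAT and GGGCGG, the core letters of the NF-Y and Sp1 motifs, searched on both strands.
Hmgn1 upstream: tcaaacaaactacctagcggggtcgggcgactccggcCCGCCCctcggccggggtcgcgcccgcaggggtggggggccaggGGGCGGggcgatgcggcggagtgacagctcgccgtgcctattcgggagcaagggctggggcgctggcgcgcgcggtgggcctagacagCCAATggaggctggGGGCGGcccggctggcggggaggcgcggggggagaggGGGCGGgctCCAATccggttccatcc

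In the window of 300 bases that RefSeq gives for each gene start, Hmgn1 held 37 CpG dinucleotides, against a median of 7 over 32544 mouse windows, with 5 copies of GGGCGG and 2 of CCAAT. Of all windows, 35.9% held GGGCGG and 37.4% held CCAAT. Neither TATAAA, found in 13.6% of all windows, nor CACGTG, found in 7.17%, was present at Hmgn1. Windows of the other members held between 12 CpG dinucleotides (Hmga2) and 45 (the second Hmgb1 start), and CCAAT was found in at least 1 window of Hmgn1, Hmgn2, Hmgn5, Hmgb1, Hmgb2 and Hmgb3 but in none of Hmga1 or Hmga2. Hmgn3 has no window in the table used. A match is a match of letters and not a bound site.

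Many HMG genes have copies elsewhere in the genome, so each transcript was cut into windows of 50 bases, the length of the reads, and compared with every other gene of GENCODE M21. Of the Hmgn1 windows, 6.54% occurred in another gene, all within 5 processed pseudogenes. This came to 56.9% of the windows of its short coding sequence and to none of those in its last 500 bases. Hmga2 shared 4.36% of its windows, 9.76% of those in its coding sequence and 8.65% of those in its last 500 bases. The coding sequences of Hmgb1 (98.5% of windows), Hmgb2 (95.7%) and Hmgb3 (89.8%) were almost wholly shared, mostly with pseudogenes, 130 of them for Hmgb1, but at most 2.00% of windows in the last 500 bases of these 3 genes were.

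The counts of Hmgn2 and Hmga1 are the least certain. Hmgn2 shared 67.1% of its windows, 65.6% of those in the last 500 bases, and all of them occurred in Gm10282, which itself had at most 4 counts in any embryo. Hmga1 shared 69.1% of its windows, all of them with Hmga1b, and 88.9% of those in the last 500 bases. The labels state that this cDNA amplification gives a 3′ bias. The file headers record an option of featureCounts that keeps multi-mapping reads, but the alignment they name carries a mark, m1, of the kind used for reads with 1 match, so it cannot be told whether reads with several matches reached the count.

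**Figure D1:**
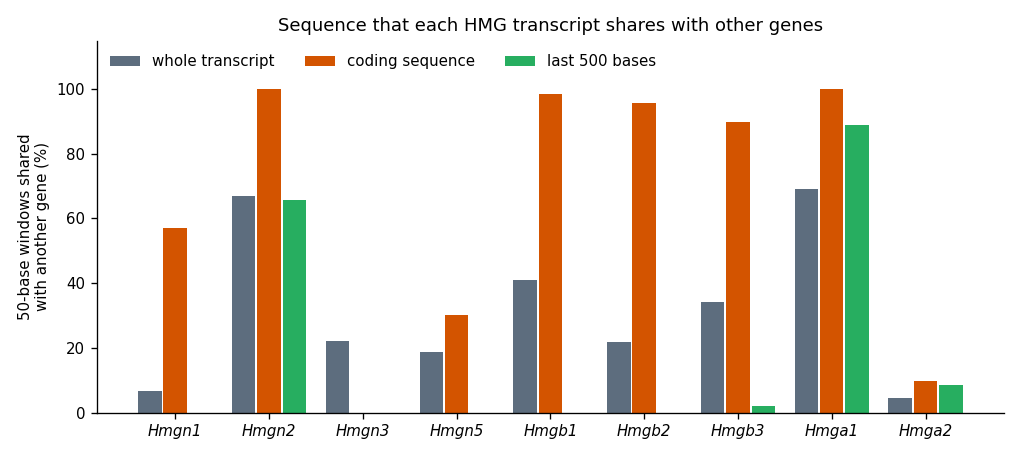
Share of the 50-base windows of each HMG transcript that also occur in another gene of GENCODE M21, as percent, for the whole transcript (grey), the coding sequence (orange) and the last 500 bases (green). Coding sequences of Hmgn2, the HMGB genes and Hmga1 are shared almost throughout, while in the last 500 bases only Hmgn2 (65.6%) and Hmga1 (88.9%) share more than 10% of windows.

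Overlapping genes were few. Exons of Hmgb1 overlap those of Uspl1 by 42 bases and of Mm2pr by 37, exons of Hmgn3 overlap Gm29054 by 255, of Hmga1 AI413582 by 100 and of Hmga2 1700006J14Rik by 140. Apart from Mm2pr these genes lie on the opposite strand, and a read in an overlap was counted for both genes.

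Total counts were 12985149 to 30053248 per control and 8231646 to 30602434 per Ehmt2Mat embryo. The unit below is CPM, the count scaled to a common library size with TMM, a factor that evens out composition between libraries. Ehmt2 itself was at 66.6 to 253 CPM in controls and 58.7 to 159 CPM in Ehmt2Mat embryos; the groups overlapped, and gene counts do not separate reads of the deleted part from the rest. The 9 markers listed for 8C embryos, led by Alppl2 and Tfap2c, had summed levels of 1714 to 5340 CPM in controls and 3797 to 7463 CPM in Ehmt2Mat embryos. Among them, Cdx2 had no count in 13 of 19 embryos, while the other markers were counted in every embryo. The sums were dominated by Alppl2, with means of 2654 CPM in controls and 4163 CPM in Ehmt2Mat embryos. Means of Tfap2c, Klf17 and Dppa5a were also higher in Ehmt2Mat embryos. Those of Pou5f1, Nanog, Klf5, Zfp42 and Cdx2 were lower, with Klf5 at 233 CPM in controls and 82.7 CPM in Ehmt2Mat embryos. Of the oocyte markers, led by Zp3 and Gdf9, the sums were 43.5 to 276 and 72.7 to 138 CPM. Markers of cumulus cells (Star and Cyp19a1 the highest), sperm (Prm2 and Prm1) and blood (Hbb-bs and Hba-a1) summed to at most 14.9, 1.23 and 7.80 CPM in any embryo.

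Of the 4 oviduct markers, Ovgp1, a secreted oviduct glycoprotein, was the exception, and Pax8 was next. Ovgp1 was at 0.0452 to 371 CPM in controls and 9.60 to 2799 CPM in Ehmt2Mat embryos. The control with 371 CPM was embryo 10, which had the lowest Hmgn1 level of the controls and on the first principal component of all tested genes (15.3% of variance) lay among the Ehmt2Mat embryos (-3.03 to 133) rather than the other controls (-79.0 to -49.6). The 3 Ehmt2Mat embryos with the least Ovgp1, 9.60, 13.8 and 23.2 CPM, had 96.0, 63.8 and 77.4 CPM of Hmgn1. They lay below every control in Hmgn1, but so did all Ehmt2Mat embryos, and the list was chosen by this gene. The source of the Ovgp1 counts was not tested, nor was its part, or that of a difference in stage, in the other values.

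Hmgn1 (chr16:96120618-96127729, minus strand) was the only member whose groups did not overlap. It was at 170 to 441 CPM in controls (median 294) and at 27.7 to 111 CPM in Ehmt2Mat embryos (median 70.6). Every Ehmt2Mat embryo lay below every control, the lowest control being 1.54 times the highest Ehmt2Mat embryo. Mean levels were 295 ± 83.3 CPM in the 9 controls and 70.7 ± 27.3 CPM in the 10 Ehmt2Mat embryos (± SD), a 4.17-fold difference, and the fitted log2 fold change was -2.06 (SE 0.24). Hmgn1 was covered by 357 to 11549 counts per embryo, so counting error was small beside the spread between embryos. In these libraries fewer cells with a transcript and less of it per cell cannot be told apart.

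Of the 11754 genes tested, 21 (0.179%) were, like Hmgn1, lower in every Ehmt2Mat embryo than in every control, and 40 (0.34%) were higher in every one. By the gap between the lowest control and the highest Ehmt2Mat embryo, Hmgn1 came second of the 21, after Smagp. Without control embryo 10, which narrows this gap, the log2 fold change of Hmgn1 was -2.13 (SE 0.24).

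Hmgn2 (chr4:133964738-133968650, minus strand), the closest relative of Hmgn1 in function, was at 9.99 to 34.4 CPM in controls (median 21.5) and 6.18 to 22.6 CPM in Ehmt2Mat embryos (median 12.99). The groups overlapped: 9 of 10 Ehmt2Mat embryos lay below the control median, but 1 lay below every control. The log2 fold change was -0.65 (SE 0.30), and Hmgn2 was not called by edgeR but was by DESeq2. Its reads may in part belong to its copies.

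Hmgn5 (chrX:109004534-109013404, minus strand), an X-linked HMGN gene with a long acidic tail, ranged from 1.62 to 29.3 CPM in controls (median 10.9) and from 0.485 to 24.7 CPM in Ehmt2Mat embryos (median 10.5). Both groups covered nearly the same wide range, with 5 of 10 Ehmt2Mat embryos on each side of the control median. Its log2 fold change was -0.27 (SE 0.56).

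Hmgn3 (chr9:83109948-83146685, minus strand) was near the limit of detection. It had no count in 6 of 9 controls and in 1 of 10 Ehmt2Mat embryos, and its highest levels were 7.53 CPM in a control and 2.79 CPM in an Ehmt2Mat embryo. It was too low to enter the fit of maternal genotypes. An absence of counts is compatible with up to 3 counts, which in these libraries are worth 0.0980 to 0.364 CPM without TMM scaling; this floor covers counting error only.

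**Figure D2:**
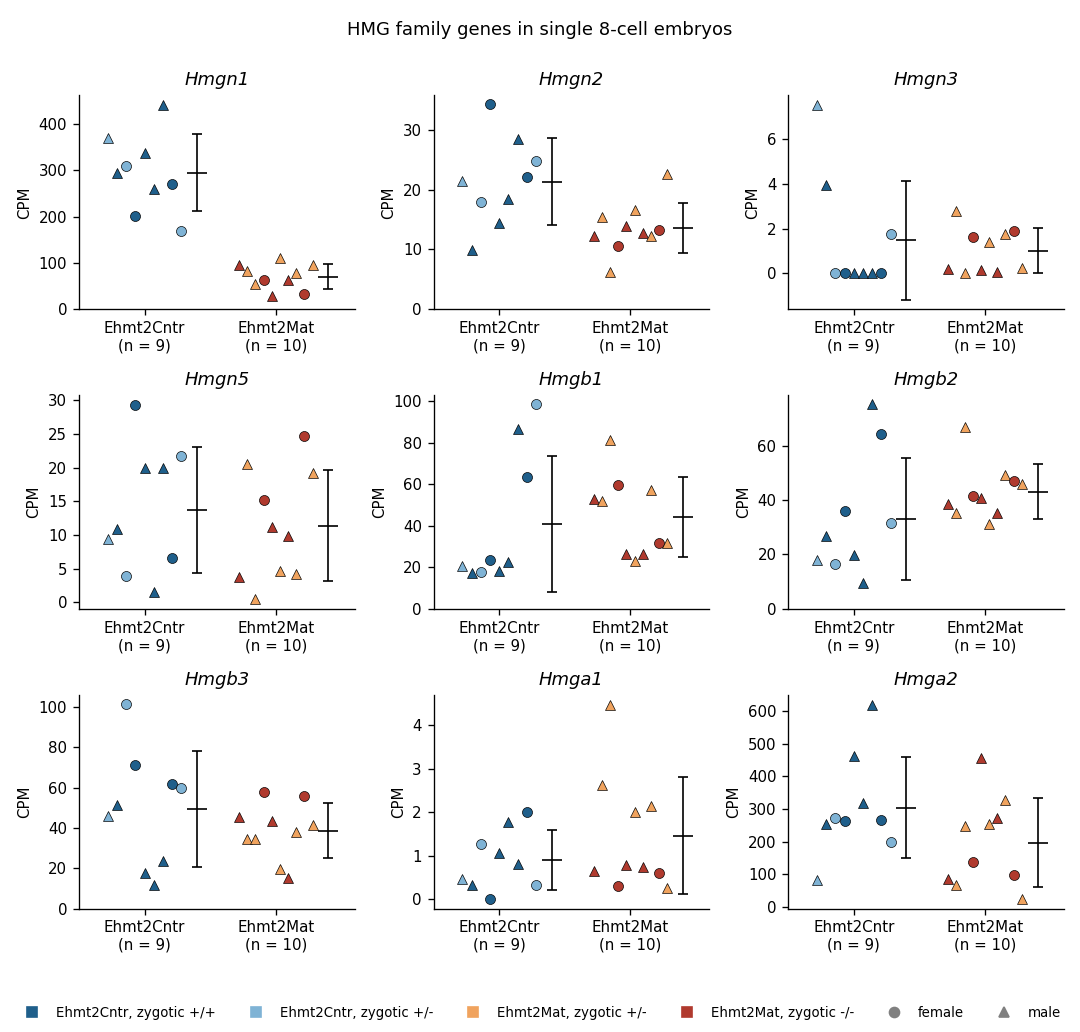
CPM of each HMG gene in each of 9 Ehmt2Cntr (blue) and 10 Ehmt2Mat (orange and red) embryos, coloured by zygotic genotype, with circles for female and triangles for male embryos and the mean ± SD beside each group. Only Hmgn1 separates the groups, at 170 to 441 CPM against 27.7 to 111 CPM, and each panel has its own axis.

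Hmgn1 was the main source of HMGN counts in controls and less so in Ehmt2Mat embryos. The 4 HMGN genes together summed to 331 ± 82.1 CPM over the 9 controls and 96.6 ± 29.4 CPM over the 10 Ehmt2Mat embryos (± SD). Hmgn1 made up a median of 90.6% of this sum in controls (75.9 to 93.4%) and 71.8% in Ehmt2Mat embryos (45.8 to 89.2%). The median share of Hmgn2 was 5.82% and 12.7%, and that of Hmgn5 3.42% and 12.6%. These shares of counts are not corrected for gene length, and none of the other HMGN genes was higher in mean level where Hmgn1 was lower. The median of Hmgn3, which was near the limit of detection, went the other way, at 0 CPM in controls and 0.832 CPM in Ehmt2Mat embryos.

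**Figure D3:**
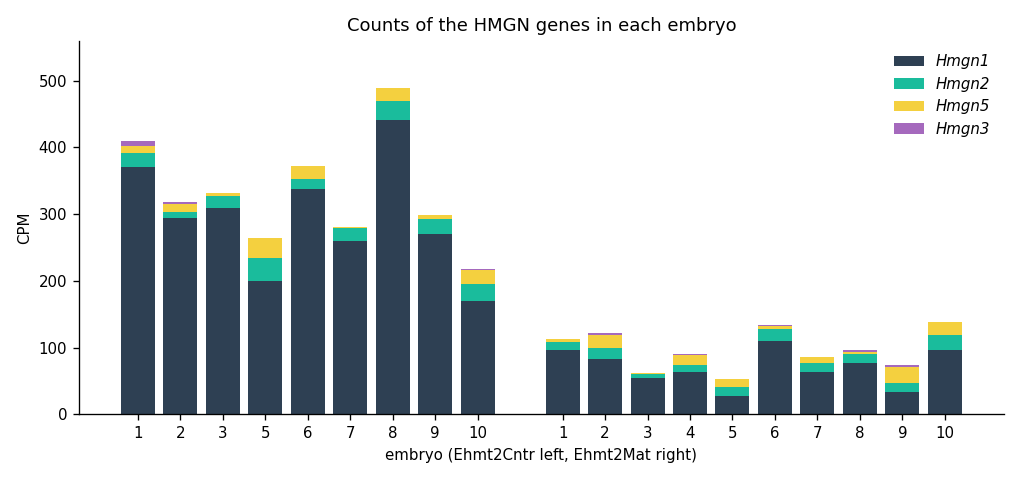
CPM of Hmgn1, Hmgn2, Hmgn5 and Hmgn3 stacked for each embryo, with the 9 Ehmt2Cntr embryos on the left and the 10 Ehmt2Mat embryos on the right. The stacks reach 218 to 490 CPM in controls and 53.0 to 138 CPM in Ehmt2Mat embryos, and most of the difference is in Hmgn1.

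The HMGB genes did not share the pattern of Hmgn1. Their sum was 123 ± 57.1 CPM over the 9 controls and 126 ± 33.5 CPM over the 10 Ehmt2Mat embryos (± SD).

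Hmgb1 (chr5:149046702-149184489, minus strand), the HMGB protein that can also act outside cells, was at 17.1 to 98.5 CPM in controls (median 22.5) and 23.0 to 81.3 CPM in Ehmt2Mat embryos (median 41.9). The controls fell on both sides of the Ehmt2Mat range: 5 of 9 lay below every Ehmt2Mat embryo and 2 lay above every one. The log2 fold change was 0.11 (SE 0.37), and it was -0.03 without Ehmt2Mat embryo 3 and 0.39 without control embryo 10, the control with the highest Hmgb1.

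Hmgb2 (chr8:57511843-57515999, plus strand), a close paralogue of Hmgb1 that is typical of dividing cells, was at 9.39 to 75.2 CPM in controls (median 26.9) and 31.3 to 66.6 CPM in Ehmt2Mat embryos (median 41.1). The pattern was like that of Hmgb1, with 5 of 9 controls below every Ehmt2Mat embryo and 1 above every one, and all 10 Ehmt2Mat embryos lay above the control median of either gene. The log2 fold change was 0.38 (SE 0.32). The spread was wider among controls, where the coefficient of variation was 67.9%, than among Ehmt2Mat embryos, where it was 23.2%. Hmgb1 and Hmgb2 varied together between embryos of the same group, with Pearson's r = 0.67 over the deviations of 19 embryos from their group means. This is the highest r among 28 pairs of members, which ranged from -0.66 (Hmgn5 with Hmga1) and had a median of 0.07, and the points of each pair share libraries and depth.

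Hmgb3 (chrX:71555918-71560676, plus strand), the X-linked HMGB gene, was at 11.8 to 101.5 CPM in controls (median 51.2) and 15.3 to 57.6 CPM in Ehmt2Mat embryos (median 39.5). The groups overlapped, although 4 controls were above every Ehmt2Mat embryo. The log2 fold change was -0.36 (SE 0.34), and with sex as a covariate it was 0.02 (SE 0.30).

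Hmga2 (chr10:120361275-120476469, minus strand), the HMGA gene of embryos, was close to Hmgn1 in CPM in controls. It was at 81.2 to 621 CPM in controls (median 267) and 24.3 to 458 CPM in Ehmt2Mat embryos (median 192). The ranges overlapped broadly, with 2 Ehmt2Mat embryos below every control, 2 controls above every Ehmt2Mat embryo and 7 of 10 Ehmt2Mat embryos below the control median. Its fitted log2 fold change was -0.63 (SE 0.40), and among zygotic +/- embryos alone it was -0.02 (SE 0.67).

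Hmga1 (chr17:27556620-27563674, plus strand) was barely detected, at 0 to 2.01 CPM in controls and 0.246 to 4.48 CPM in Ehmt2Mat embryos. The groups overlapped, and the 3 highest levels belonged to Ehmt2Mat embryos. Hmga1 had a fitted log2 fold change of 0.70 (SE 0.78). Hmga1b, its near-identical copy, was at a mean of 0.475 CPM and 1.21 CPM, and the reads of both cannot be told apart over most of their length. Hmga2 made up at least 96.2% of HMGA counts in every embryo.

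As a description of the fit of maternal genotypes, 8 of the 9 members entered it, and the call of 1 as lower, Hmgn1, and of none as higher restates how the list was made. Over all 11754 genes tested, 9.35% were called, 4.98% lower and 4.37% higher. At an unadjusted p of 0.05 these were 2 members (Hmgn1 and Hmgn2) and 23.3% of all genes, and with DESeq2 the same 2 members and 13.6% of 15164 genes. The median log2 fold change was -0.31 over these 8 members and -0.04 over all genes tested. Nothing about the family follows from these counts.

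**Figure D4:**
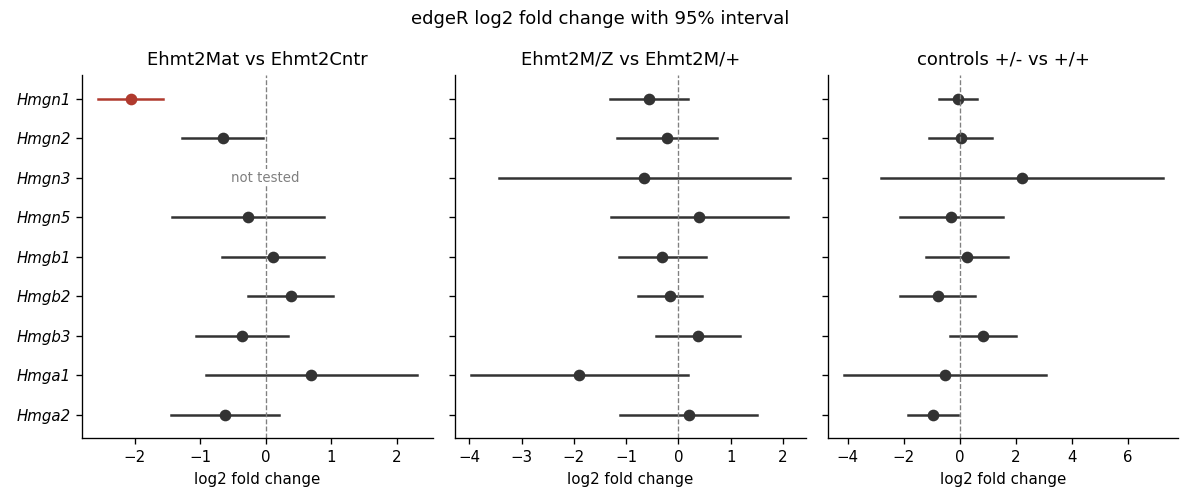
Log2 fold change of each HMG gene fitted by edgeR with its 95% interval, for Ehmt2Mat against Ehmt2Cntr embryos (left), Ehmt2M/Z against Ehmt2M/+ embryos (middle) and zygotic +/- against +/+ controls (right), with red for a gene the fit calls. Only Hmgn1 in the left panel, at -2.06, is red, which restates how the list was made, Hmgn3 did not enter that fit, and the axes of the panels differ.

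Compared per length, as RPKM, which is CPM divided by exon length in kilobases, the most abundant HMG mRNA was Hmgn1 in controls and Hmga2 in Ehmt2Mat embryos. In controls, median RPKM was 91.2 for Hmgn1, 39.5 for Hmga2, 22.9 for Hmgb3, 9.99 for Hmgb2, 7.02 for Hmgn2, 5.63 for Hmgn5, 4.47 for Hmgb1, 0.403 for Hmga1 and 0 for Hmgn3. Hmgn1 was above Hmga2 in all 9 controls, although the ranges of the 2 genes overlapped over embryos. That all controls had this order rests on the division by length. In CPM the medians were 294 for Hmgn1 and 267 for Hmga2, and the means 295 and 304. Hmga2 was then above Hmgn1 in some controls, such as embryo 8 (621 against 441 CPM), and below it in others, such as embryo 1 (81.2 against 370 CPM). Of the other neighbours in the order by RPKM, only Hmgb1 and Hmga1 had ranges that did not overlap.

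In Ehmt2Mat embryos, median RPKM was 28.3 for Hmga2, 21.9 for Hmgn1, 17.7 for Hmgb3, 15.3 for Hmgb2, 8.35 for Hmgb1, 5.44 for Hmgn5, 4.25 for Hmgn2, 0.445 for Hmgn3 and 0.378 for Hmga1. Hmga2 exceeded Hmgn1 in 7 of 10 of these embryos, and Hmgb2 exceeded Hmgb1 in all 10. That all 10 had this order of Hmgb2 and Hmgb1 rests on the division by length. In CPM their medians were 41.1 and 41.9. Hmgb2 was then below Hmgb1 in some Ehmt2Mat embryos, such as embryo 1 (38.7 against 52.7 CPM). It was above Hmgb1 in others, such as embryo 5 (40.9 against 26.7 CPM). Neighbours in the order overlapped except for Hmgn2 and Hmgn3. With a protocol that favours 3′ ends, division by the whole exon length can understate long transcripts such as Hmga2 and Hmgb1. Coverage along transcripts was not analysed here.

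**Figure D5:**
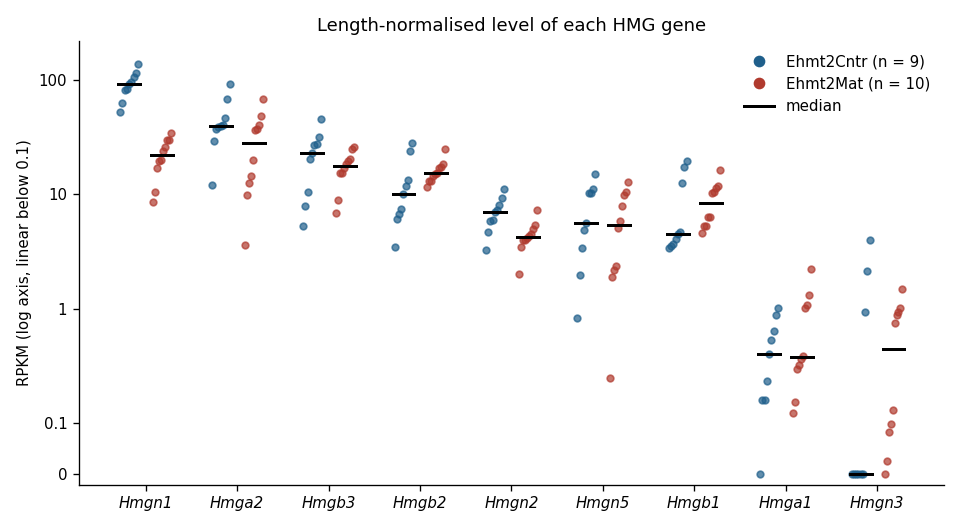
RPKM of each HMG gene in 9 Ehmt2Cntr (blue) and 10 Ehmt2Mat (red) embryos on a log axis that is linear below 0.1, ordered by the control median, with a black line at each median. Hmgn1 leads in controls with a median of 91.2, and in Ehmt2Mat embryos its median of 21.9 is below that of Hmga2 at 28.3.

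Whether the embryo's own copy of Ehmt2 mattered to the HMG genes was asked within each maternal group, a comparison that played no part in their choice. Within Ehmt2Mat embryos, Hmgn1 was at 27.7, 33.6, 63.2, 63.8 and 96.7 CPM in Ehmt2M/Z and at 54.9, 77.4, 83.4, 96.0 and 111 CPM in Ehmt2M/+ embryos. The 2 sets overlapped, although the 2 lowest levels were in Ehmt2M/Z embryos. The log2 difference was -0.57 (SE 0.35, 95% interval -1.32 to 0.18, edgeR adjusted p = 1.00), an interval that holds both equal levels and a clearly lower level in Ehmt2M/Z embryos.

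Of the 9 members, all were tested between Ehmt2M/Z and Ehmt2M/+ embryos and 0 were called by edgeR, with 0 at an unadjusted p of 0.05 and 0 by DESeq2. The background was 0% called of 12195 genes by edgeR, 2.21% at an unadjusted p of 0.05 and 0.099% of 15148 genes by DESeq2. The member with the largest difference was Hmga1, at 0.304 to 0.775 CPM in Ehmt2M/Z and 0.246 to 4.48 CPM in Ehmt2M/+ embryos. Its log2 difference was -1.90 (SE 0.97, 95% interval -3.97 to 0.18, edgeR adjusted p = 1.00), and 4 of 5 Ehmt2M/+ embryos were above all Ehmt2M/Z embryos.

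Within controls, Hmgn1 was at 170, 310 and 370 CPM in +/- embryos and at 200 to 441 CPM in +/+ embryos. The ranges nearly coincided, with a log2 difference of -0.08 (SE 0.31, 95% interval -0.75 to 0.60, edgeR adjusted p = 1.00). Hmga2 was at 81.2, 199 and 271 CPM in +/- embryos and at 254 to 621 CPM in +/+ embryos, so that 1 of the 3 +/- embryos was within the +/+ range. Its log2 difference was -0.97 (SE 0.42, 95% interval -1.86 to -0.07), with an unadjusted p of 0.036 and an adjusted p of 1.00 by edgeR, and it did not pass. Of the 9 members tested, 0 were called by edgeR, 1 (Hmga2) passed at an unadjusted p of 0.05 and 0 were called by DESeq2, beside 0% and 4.52% of 12646 genes by edgeR and 0.733% of 14044 genes by DESeq2.

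A further contrast took Ehmt2Mat +/- minus control +/- embryos against Ehmt2Mat -/- minus control +/+ embryos. Only +/- embryos occur in both maternal groups, so the second difference spans zygotic as well as maternal genotype. The contrast amounts to the zygotic differences within Ehmt2Mat embryos and within controls added together, with the sign turned. It is therefore neither an independent test nor a test of whether the maternal difference depends on zygotic genotype. For Hmgn1 the contrast had a log2 value of 0.66 (SE 0.48, 95% interval -0.33 to 1.66, edgeR adjusted p = 0.884). Of the 9 members, 0 were called by edgeR, 0 passed at an unadjusted p of 0.05 and 0 were called by DESeq2, beside 0% and 6.68% of 15224 genes by edgeR and 0.661% of 15576 genes by DESeq2. Among zygotic +/- embryos alone, Hmgn1 was at 170 to 370 CPM in 3 controls and at 54.9 to 111 CPM in 5 Ehmt2Mat embryos. The log2 fold change was -1.76 (SE 0.33). These ranges could not overlap, since those of all embryos did not, and the values restate the choice of the list. In the fit of +/- embryos alone 1 gene in all was called, and it was not Hmgn1. The log2 fold change there was 1.02 (SE 0.47) for Hmgb2, -1.06 (SE 0.41) for Hmgb3 and 1.73 (SE 1.56) for Hmga1, each over 1.5 times the value over all embryos.

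Sex differed in number between the groups, which matters for Hmgb3 and Hmgn5 on the X chromosome. By the summed level of 4 Y-linked genes, 0.582 to 2.40 CPM in females and 80.5 to 329 CPM in males, there were 4 female and 5 male controls and 2 female and 8 male Ehmt2Mat embryos. Hmgb3 was at 59.7, 61.9, 71.3 and 101.5 CPM in female and at 11.8 to 51.2 CPM in male controls, and at 55.7 and 57.6 CPM in female and 15.3 to 45.4 CPM in male Ehmt2Mat embryos. All 6 females were above all 13 males, which held for 6 of 11754 genes (0.051%), each of them among the 343 X-linked genes tested (1.75%).

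In the fit with maternal genotype and sex, Hmgb3 was lower in males by a log2 difference of -1.07 (SE 0.31, 95% interval -1.72 to -0.43, unadjusted p = 0.0023). The adjusted p was 0.434 by edgeR, so the difference did not pass over all genes, of which 0.0766% were called. Hmgn5 differed by -0.67 (SE 0.59, adjusted p = 1.00 by edgeR). Of 8 members tested for sex, 0 were called and 2 passed at an unadjusted p of 0.05, beside 5.27% of all genes. The second was Hmgn1, higher in males by 0.58 (SE 0.25, adjusted p = 0.853 by edgeR), and its maternal log2 fold change with sex in the fit was -2.20 (SE 0.23).

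Genes whose levels followed Hmgn1 most closely were found by Pearson's r of log2 CPM over the 19 embryos, as a description. Lrch3 (r = 0.89), Mrpl21 (0.89), Smagp (0.89), Gnb1 (0.88) and Epas1 (0.88) were first, and all 5 were lower in Ehmt2Mat embryos, so the difference between groups enters these values of r. With the group means removed, the first 5 were Agps (0.77), Ccne1 (0.73), Alkbh7 (0.72), Dap3 (0.71) and Ston2 (0.71), of which Ccne1, which encodes cyclin E, was called lower (log2 fold change -1.06). No gene was among the first 5 by both measures, and Hmgn2 had r = 0.53 with Hmgn1 over all embryos but r = 0.09 with the group means removed.

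Relatives and partners of the members outside the list were tested between maternal genotypes in the same fit. Of 41 genes with an HMG box outside the family, 21 were tested, 3 were called lower and 2 higher, against 4.98% and 4.37% of all genes. Sox21, a transcription factor that differs between blastomeres, fell from 140 ± 71.4 to 49.5 ± 36.5 CPM (SD, n = 9 and 10; log2 fold change -1.50, adjusted p = 0.022 by edgeR). Pbrm1, a subunit of the PBAF remodeller, fell from 68.3 ± 23.6 to 33.9 ± 14.6 CPM (-1.01, adjusted p = 0.018 by edgeR), and Hmg20b, of the CoREST complex, from 68.3 ± 31.4 to 37.5 ± 10.9 CPM (-0.86, adjusted p = 0.036 by edgeR). The transcriptional repressor gene Hbp1 rose from 212 ± 52.7 to 332 ± 74.2 CPM (0.64, adjusted p = 0.020 by edgeR), and Hmgxb4 rose from 120 ± 34.2 to 197 ± 63.6 CPM (0.71, adjusted p = 0.036 by edgeR). The median log2 fold change of this list was -0.05. Only Pbrm1, Hbp1 and Sox21 were called without control embryo 1 or 7 or without Ehmt2Mat embryo 2, 5 or 9, which leaves 3 of the 5 calls.

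Linker histones, the competitors of HMGN proteins, gave no call. Of 11 listed, 3 were tested and 0 called by edgeR or by DESeq2, with 0 at an unadjusted p of 0.05: the oocyte linker histone H1foo (19.1 ± 13.2 and 16.0 ± 5.52 CPM), H1f0 (19.9 ± 22.2 and 27.9 ± 13.8 CPM) and Hist1h1c (0.941 ± 1.90 and 4.16 ± 3.42 CPM). Replication-dependent histone mRNAs mostly lack a poly(A) tail, which limits what this protocol captures. Of 8 AT-hook genes outside the family, 5 were tested and 0 were called by edgeR or by DESeq2, with 0 at an unadjusted p of 0.05.

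Of the SET complex, in which Hmgb2 is a subunit, 5 genes were tested and 1 was called lower and none higher, against 4.98% and 4.37% of all genes. Anp32a fell from 11.6 ± 8.05 to 2.93 ± 2.05 CPM (SD, n = 9 and 10; log2 fold change -1.99, adjusted p = 0.022 by edgeR), while Set was at 397 ± 195 and 404 ± 57.8 CPM. Without control embryo 8, 0 genes of this list were called. Of 5 genes for receptors of Hmgb1 and its nuclear exporter, only the exporter Xpo1 was tested, and it was not called (632 ± 348 and 266 ± 158 CPM, log2 fold change -1.24, adjusted p = 0.060 by edgeR). It was called without control embryo 1 or 3 or without Ehmt2Mat embryo 5 or 10. It passed at an unadjusted p of 0.05, and DESeq2 called 2 of these genes, Xpo1 and Havcr2.

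Of 11 genes that act on let-7 or bind the Hmga2 mRNA, 9 were found by symbol, 8 were tested, 2 were called lower and none higher, against 4.98% and 4.37% of all genes. Igf2bp2, an mRNA-binding protein and itself a target gene of Hmga2, fell from 435 ± 132 to 263 ± 57.3 CPM (SD, n = 9 and 10; log2 fold change -0.72, adjusted p = 0.013 by edgeR). Lin28a, which blocks let-7 maturation, fell from 37.1 ± 23.9 to 13.3 ± 7.08 CPM (-1.48, adjusted p = 0.021 by edgeR), a call that was lost without control embryo 8, when 1 gene of the list was called. Dicer1, Drosha and Dgcr8, which process microRNAs, were not called, with log2 fold changes of 0.03 to 0.19, and the median of the list was -0.67. In the same embryos Hmga2 was at means of 304 and 197 CPM. Levels of let-7 were not analysed here.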

How the data were processed

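RNA of 19 single mouse 8C embryos (9 Ehmt2Cntr, 10 Ehmt2Mat) was analysed, grouped by the labels. The authors deposited raw counts of reads per Ensembl gene for each embryo, without normalization. The file headers record featureCounts 1.5.0 on exons of Ensembl release 82 (GRCm38), an overlap of at least 10 bases, with reads in overlapping genes counted more than once. The submitters' processing notes name TopHat2, featureCounts and DESeq2, the methods describe TopHat2 with SeqMonk counts for genes, and the aligner behind these counts is not given in the sources used here. The headers also record that multi-mapping reads were kept, on an alignment marked m1. Libraries were single-end, and the sequencer is given as a HiSeq1500 or a HiSeq4000 in different sources.

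From these counts, genes were filtered with filterByExpr, scaled by TMM and tested with the quasi-likelihood test of edgeR 4.0.16 (R 4.3.3), with Benjamini-Hochberg adjustment over all genes tested and a threshold of 0.05. CPM and RPKM use TMM-scaled library sizes and, for RPKM, the exon length in the count files. Maternal genotype was fitted over all embryos without a covariate, and zygotic genotype within each maternal group. Sex was called male above 10 CPM of Ddx3y, Uty, Kdm5d and Eif2s3y together. Likeness was measured on log2 CPM (prior count 2). Intervals are 95% intervals of the fit. Scripts were tested on simulated data. Sequences came from GENCODE M21 transcripts and RefSeq windows of gene starts.

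The members and gene lists were chosen with earlier results of these data known. The text names all 9 members, called genes of each related list (up to 6 by adjusted p), the 5 genes most like Hmgn1 by each measure, Ehmt2, genes with overlapping exons and the 2 highest markers of each list. Genes of a list that were not called are named besides these, as are Hmga1b and Gm10282, and these were chosen after their values were seen. Alternatives were RLE scaling, DESeq2 1.42.0, 2 other filters, sex, matched zygotic genotype, a slope on exon length, the embryo number as a block, and each embryo left out. The coefficient of sex, and the related lists without a filter or with the slope removed, were added after seeing the data. The labels name no mothers or litters, so each embryo was treated as a separate unit although some may be littermates. The p-values measure the spread between these embryos and not between litters. Total counts of 8231646 to 30602434 set the counting error and not the spread between embryos.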

Additional observations from a re-analysis of the deposited data

Results flagged for a closer look

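The level of Hmgb2 in Ehmt2Mat embryo 3 was 66.6 CPM, far above the next highest Ehmt2Mat embryo at 49.2 CPM, a gap that is large for a group of 10 (gap over range 0.495). It was the only such value among 18 groups of member levels looked at, and chance alone flags about 1 group in 20. The same embryo had the smallest total count (8231646) and the most Ovgp1 (2799 CPM), and their part in this value was not tested. Without it the log2 fold change of Hmgb2 between maternal groups was 0.29 (SE 0.32).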

How the results depend on the processing

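As a description, since this comparison chose the list, the log2 fold change of Hmgn1 was -2.20 to -1.97 under every alternative except zygotic +/- embryos alone (-1.76). In that comparison the fit called 1 member (Hmgn1), against 2 with DESeq2 (Hmgn1 and Hmgn2) and 0 among zygotic +/- embryos alone. Of the other members, Hmgb1 was at 0.11 and between -0.028 (without Ehmt2Mat embryo 3) and 0.39 with an embryo left out, Hmgb3 turned from -0.36 to 0.017 with sex as a covariate, and Hmga2 went from -0.63 to -0.02 among zygotic +/- embryos. No member was called for zygotic genotype, or in the contrast that adds its differences within both maternal groups, under any alternative. Over all genes, 1099 calls became 2068 with DESeq2, 1 with matched zygotic genotype, and 884 to 1262 with an embryo left out. The share of higher calls was 46.8% and rose to at most 54.8% (no filter), with a median log2 fold change of all genes of -0.04, against 0.14 with DESeq2 and 0.13 with no filter. Same-numbered embryos did not deviate together (r -0.16 to 0.09 over 9 pairs). This gives no sign of pairing by number, but it cannot show whether such embryos were handled together. The replicate block called 1 member and 699 genes, or 681 with the slope on exon length removed. Of the related lists, the block called 1 HMG-box gene in place of 5, 0 SET complex genes in place of 1, 1 Lin28 and let-7 gene in place of 2, and 1 Hmgb1 receptor or exporter gene in place of 0. A minimum of 10 counts called 0 SET complex genes and 1 receptor or exporter gene, which numbered 1 with no filter and 2 with DESeq2. With each embryo left out the calls were 3 to 6 HMG-box, 0 to 1 SET complex, 0 to 1 receptor or exporter and 1 to 3 Lin28 and let-7 genes. In these cases the cause was not tested. In RPKM, 3 members in controls and 4 in Ehmt2Mat embryos changed place in the order by level. With a prior count of 0.5, 5 of 5 and, with group means removed, 4 of 5 genes most like Hmgn1 were shared. Depth limited Hmgn3 and Hmga1, which had few counts.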
